A study of Mus musculus with 6 samples.

Results

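The subject here is a set of 8 genes for platelet receptors and for the plasma protein that the GPIb-IX-V complex catches. Gp1ba, Gp1bb, Gp5 and Gp9 encode the subunits of that complex. The others are Gp6 (GPVI), Clec1b (CLEC-2), Treml1 (TLT-1) and Vwf (von Willebrand factor). The members were all probe sets whose platform annotation names only 1 of these genes. That gave 8 probe sets for 7 of the 8 genes, of 45101 probe sets in the series. No probe set is named for Gp1ba alone in this annotation, so Gp1ba has no value here, although it may be on the array. A further probe set, named for both Gp1bb and its overlapping neighbour Septin5, was left out by the same rule.

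The arrays compared 3 samples titled Gata-1 Knock Down with 3 titled Gata-1 Wild Type, lettered A, B and C in each group. GATA1 is the zinc finger transcription factor on which megakaryocytes, the parent cells of platelets, depend for maturation. All 6 samples were mouse megakaryocytes cultured from fetal liver progenitors of embryonic day 13.5 and collected on an albumin gradient. The labels name no strain, allele, sex or pooling. They also leave unsaid whether a sample was its own culture or animal, so a p-value here speaks of the spread between samples that may be technical replicates.

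As background, platelets are slowed on a torn vessel when the GPIb-IX-V complex binds von Willebrand factor laid down on collagen. GPVI then binds the collagen itself and signals through the Fc receptor gamma chain, while CLEC-2, the receptor for podoplanin, signals through a single tyrosine motif of its own. TLT-1 is stored in alpha granules and reaches the surface when platelets are activated. These genes are switched on as megakaryocytes mature, and GATA and ETS factors are known regulators of several of them.

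Gata1 itself read 153.5, 143.3 and 194.7 in knockdown A, B and C and 8723.7, 8246.5 and 8495.6 in wild type A, B and C, so the titles held on every array. Knockdown B stood apart with the highest median signal, 137.8 against 101.6 to 118.4 on the other 5 arrays, and the highest bacterial control signal, 132 against 60.7 to 82.2. The summed signal of the 4 megakaryocyte markers read for this check, Itga2b, Pf4, Ppbp and Gp9, of which Gp9 is also a member here, spanned 53773 to 70676 in knockdown and 62833 to 67269 in wild type. In the fit described below, Ppbp and Gp9 were called lower, while the brighter Itga2b and Pf4 did not pass. The median log2 fold change of the 4 was -0.318. All members lay well above background: the lowest ratio of a member's signal to the highest bacterial control of its array was 3.1, for the dimmer probe set of Gp1bb.

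On the scale tested, log2(signal + 32) after quantile normalization, all 8 member probe sets were lower in knockdown at a limma adjusted p under 0.05, and none was higher. Over the 31526 probe sets tested, 14.3% were called lower and 16.1% higher. Among the 1000 brightest, which hold 6 of the 8 members, 254 were called lower and 342 higher. The median log2 fold change was -0.505 for the 8 member probe sets and 0.0414 over all probe sets tested. On the deposited signals, 7 of the 8 had every knockdown array below every wild-type array, which held for 16.9% of all probe sets tested, and Clec1b was the exception. The falls spanned a wide range, from 3.08-fold for Gp6, 3.04-fold for Vwf and 2.35-fold for the brighter probe set of Gp1bb down to 1.16-fold for Clec1b. All 8 were called lower without knockdown A or without knockdown B, the array that stood apart, and 7 were without knockdown C or without any 1 wild-type array, where the dimmer Gp1bb probe set was lost. After arrays were centred on their medians 7 were called lower, as with no filter on dim probe sets, and with signals as deposited 5 were. In bulk RNA, fewer cells of a type and less RNA per cell cannot be told apart.

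**Figure D1:**
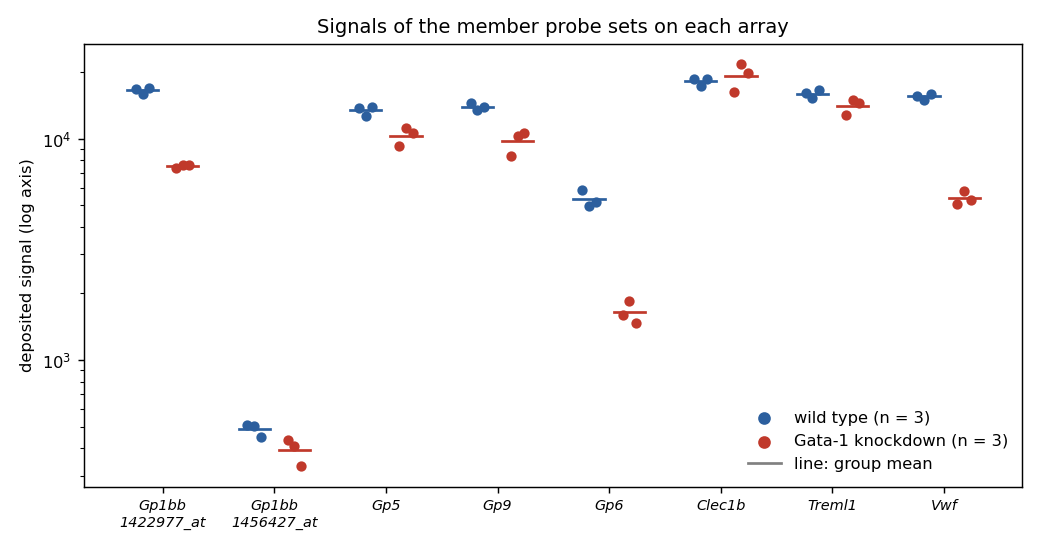
Deposited signal (log axis) of each member probe set on each of the 6 arrays, with wild type in blue, knockdown in red and a line at each group mean (n = 3 each). The groups lie far apart for the brighter Gp1bb probe set, Gp6 and Vwf, lie close together for Treml1, and overlap for Clec1b, where knockdown A read 16265 and knockdown B 21677 against 17312 to 18586 in wild type.

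The gene starts of 3 members are shown to set the number of GATA motifs before the start beside the size of the fall, which differed between these genes. Each run gives the 250 bases before the RefSeq gene start in GRCm38.p6, read 5′ to 3′ on the gene's own strand, with GATA motifs in capitals: matches, on either strand, to AGATAA, to its variant TGATAA, to its variant AGATAG and to its variant TGATAG. Gp5 lies on the minus strand at chr16:30310782-30311031, Gp6 on the minus strand at chr7:4397745-4397994 and Clec1b on the plus strand at chr6:129397047-129397296.
Gp5: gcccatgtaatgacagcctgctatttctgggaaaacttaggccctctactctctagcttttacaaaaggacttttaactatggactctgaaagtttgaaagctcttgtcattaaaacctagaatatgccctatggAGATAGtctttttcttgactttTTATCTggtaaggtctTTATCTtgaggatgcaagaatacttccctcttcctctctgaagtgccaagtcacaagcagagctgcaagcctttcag
Gp6: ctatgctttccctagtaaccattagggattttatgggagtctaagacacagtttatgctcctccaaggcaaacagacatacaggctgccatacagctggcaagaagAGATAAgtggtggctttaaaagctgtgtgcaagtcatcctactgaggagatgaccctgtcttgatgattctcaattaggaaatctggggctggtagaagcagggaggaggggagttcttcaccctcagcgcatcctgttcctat
Clec1b: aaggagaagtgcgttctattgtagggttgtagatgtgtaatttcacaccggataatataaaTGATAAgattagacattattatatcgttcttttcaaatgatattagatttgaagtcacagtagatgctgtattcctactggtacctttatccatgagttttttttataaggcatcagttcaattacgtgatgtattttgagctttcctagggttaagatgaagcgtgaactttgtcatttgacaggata

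RefSeq windows of 300 bases, from 250 before to 50 after the start, were matched for 7 of the 8 members. The GATA letters were found in 5 of them and in 29.8% of all 32851 windows. Gp5 and Gp1ba held 3 matches each, Clec1b 2, Gp1bb and Gp6 1 each, and Gp9 and Treml1 none. Of the 2 in Clec1b, 1 lies after the start, from 37 to 42 bases, and is not in the run printed above. The ETS letters AGGAAG, or with another first base CGGAAG, on either strand, lay in 4 of the 7 windows (Gp1ba, Gp1bb, Gp5 and Gp9) and in 46.5% of all. The RUNX letters TGTGGT, or with another inner base TGCGGT, on either strand, lay in the Gp9 window only, at 2 places, and in 22.4% of all windows. These motifs do not overlap each other in any of the 7. The order of the falls did not follow the number of GATA matches in these windows: Gp5, with 3, had a log2 fold change of -0.43, and Gp6, with 1, had -1.63. A match is only a run of letters, and its use as a binding site was not measured.

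**Figure D2:**
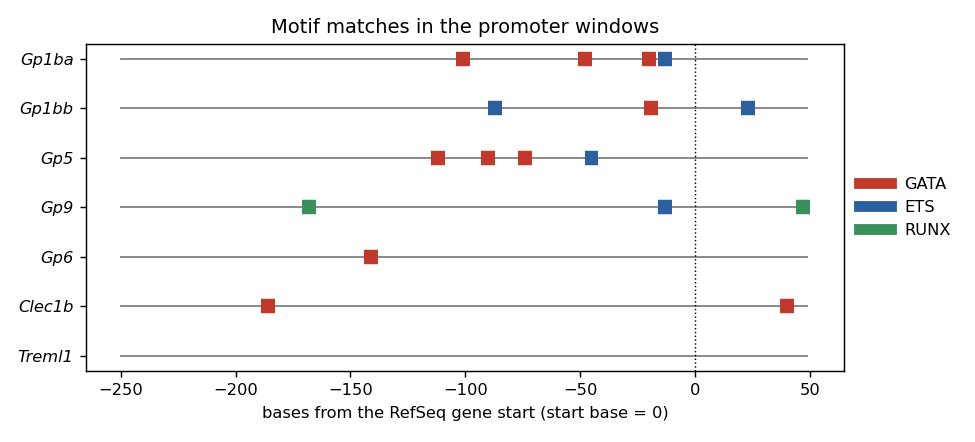
Positions of matches to GATA, ETS and RUNX letters in the RefSeq windows of 7 members, in bases from the gene start, which is counted as 0. Gp5 holds 3 GATA matches within 115 bases before its start, and Treml1 holds no match of any of the 3 kinds.

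Von Willebrand factor, the multimeric ligand of GPIb that megakaryocytes pack into alpha granules, was among the larger falls of the set. Vwf (probe set 1435386_at) read 15630.6, 14926.6 and 15908.7 in wild type A, B and C and 5070.7, 5828.1 and 5263.2 in knockdown A, B and C. The groups were far apart and the spread within each was small, with means of 15489 ± 506 in wild type and 5387 ± 394 in knockdown (SD, n = 3). The log2 fold change was -1.60 ± 0.06 (SE), with a limma adjusted p of 3.74e-08. Its value was -1.52 with signals as deposited and -1.72 with arrays centred on their medians.

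Vwf is also a product of endothelial cells, so their markers were read beside it. The summed signal of 8 endothelial markers was 2610 to 3082 in wild type and 6276 to 7096 in knockdown, the opposite direction to Vwf. Of the 6 tested, 4 were higher in knockdown and none was lower: the receptor Tek by 1.56, the VEGF receptor Kdr by 1.54, Tie1 by 1.38 and the TGF-beta coreceptor Eng by 0.82 on the log2 scale. The endothelial cadherin Cdh5 was near background, at 22.2 to 108.1 over the 6 arrays, as was Robo4, at 65.9 to 134.5. Neither was called. Emcn and Cldn5 lay at or below the bacterial controls on every array, so the sum rested mostly on the 4 markers called higher. Pecam1 and Esam, 2 adhesion genes named for endothelial cells but not on this list, went the other way, at -1.79 and -1.13. The part of endothelial cells in the Vwf value was not tested.

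The 3 measured subunits of the GPIb-IX-V complex were all lower, and the largest fall was that of the brighter of 2 Gp1bb probe sets. Gp1bb encodes GPIb beta, which is disulphide-linked to GPIb alpha and needed for the complex to reach the surface. Its brighter probe set, 1422977_at, read 16738.3, 15944.3 and 16961.0 in wild type and 7395.9, 7624.6 and 7599.0 in knockdown. No array of a group came near the other group, with means of 16548 ± 534 in wild type and 7540 ± 125 in knockdown (SD, n = 3). The log2 fold change was -1.23 ± 0.04 (SE), with a limma adjusted p of 1.34e-08, and it was -1.13 with signals as deposited and -1.33 with arrays centred on their medians.

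The other probe set of Gp1bb, 1456427_at, was dim and gave a much smaller value. It read 507.6, 504.0 and 448.0 in wild type and 435.5, 408.6 and 331.4 in knockdown, so that the highest knockdown array lay just under the lowest wild-type array. The log2 fold change was -0.39 ± 0.12 (SE) with a limma adjusted p of 0.0378, close to the threshold. The call was lost with signals as deposited (adjusted p 0.0959) and without knockdown C, wild type A, wild type B or wild type C, where the log2 fold change was -0.288, -0.361, -0.37 and -0.434. The probe sets of this gene thus agree in direction and disagree in size. Gp1bb overlaps Septin5, a septin gene, in the RefSeq table, and no probe set is named for Septin5 alone, so transcripts of the pair cannot be told apart in what was measured here. The probe set that names both read 603.0 to 750.1 in wild type and 168.5 to 275.0 in knockdown, a log2 fold change of -1.60 ± 0.19 (SE; limma adjusted p 0.000119).

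Gp9, the small leucine-rich subunit GPIX, which binds GPIb beta and steadies the complex (probe set 1419720_at), read 14431.0, 13463.7 and 13902.8 in wild type and 8383.1, 10313.7 and 10638.5 in knockdown. Knockdown A was the lowest, and the highest knockdown array was still below every wild-type array. On the log2 scale it changed by -0.58 ± 0.06 (SE; limma adjusted p 7.11e-05), which is 1.49-fold lower. Without knockdown A it was -0.50.

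Gp5 encodes GPV, a thrombin substrate that is more loosely bound to the complex and is not needed for its surface display. Its probe set, 1422817_at, read 13780.2, 12704.8 and 13891.1 in wild type and 9280.4, 11136.7 and 10543.7 in knockdown, again with no overlap. The fitted change was -0.43 ± 0.05 on the log2 scale (SE; limma adjusted p 9.65e-05), a 1.35-fold lower level. This is the gene with 3 GATA matches in the run printed above.

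The subunits were set against each other within each array, since they belong to 1 complex. The difference of log2 fold changes was -0.804 for Gp1bb minus Gp5 and -0.654 for Gp1bb minus Gp9. The within-array log2 difference of Gp1bb and Gp5 lay between -0.468 and -0.347 in knockdown and between 0.366 and 0.438 in wild type, with no overlap. For Gp1bb and Gp9 it lay between -0.436 and -0.19 in knockdown and between 0.278 and 0.361 in wild type, also with no overlap. Each of these 2 pairs had a p of 0.10 by the exact two-sided permutation test, the smallest that 3 arrays against 3 allow, and 0.15 when adjusted over the 3 pairs compared. Gp5 minus Gp9 differed by 0.15, with knockdown values of -0.0153 to 0.158 and wild-type values of -0.114 to -0.00527 that overlap (exact permutation p 0.20, also after adjustment). The dim Gp1bb probe set does not enter these values, and its log2 fold change of -0.39 is near the -0.43 of Gp5.

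Gp6 encodes GPVI, the collagen receptor found on megakaryocytes and platelets, and fell by about as much as Vwf. Its probe set, 1446554_at, read 5831.8, 4964.5 and 5198.8 in wild type and 1593.3, 1857.1 and 1473.8 in knockdown. Every knockdown array was below every wild-type array by a wide margin. The means were 5332 ± 449 and 1641 ± 196 (SD, n = 3), and the log2 fold change was -1.63 ± 0.10 (SE) with a limma adjusted p of 1.09e-06. It ranged from -1.74 to -1.55 as each array was left out, and its distance from the -1.60 of Vwf is smaller than either standard error. Fcer1g, the Fc receptor gamma chain that carries the GPVI signal, did not pass the test, with means of 13726 in wild type and 14797 in knockdown, a log2 fold change of -0.00058 and a 95% interval of -0.0847 to 0.0835.

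Clec1b encodes CLEC-2 and its probe set, 1421182_at, gave the highest signals of the set. It read 18496.8, 17312.4 and 18586.0 in wild type and 16264.9, 21677.3 and 19725.6 in knockdown. The groups overlapped: knockdown B and C were above all wild-type arrays and knockdown A was below them. Its fitted log2 fold change was -0.21 ± 0.04 (SE; limma adjusted p 0.00214), whereas with signals as deposited it was 0.0748 (95% interval -0.136 to 0.286, adjusted p 0.593) and with arrays centred on their medians -0.12 (-0.297 to 0.0558, adjusted p 0.328). The call for Clec1b therefore holds under quantile normalization alone of these 3 scalings, and its sign turns with signals as deposited. The median over all probe sets tested also moved with the scaling, from 0.0414 to 0.15 with signals as deposited and -0.0453 with median centring, so Clec1b lay below that median under each. CLEC-2 is also found on some mouse myeloid cells. The summed signal of 7 neutrophil markers was 10044 to 10374 in wild type and 2598 to 2634 in knockdown, and that of 6 macrophage markers 15360 to 16153 and 5864 to 6162, with none of them within background on every array. Their part in the Clec1b value was not tested.

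Treml1 encodes TLT-1, an alpha granule receptor that binds fibrinogen. Its probe set, 1452630_at, read 16103.8, 15213.7 and 16546.2 in wild type and 12744.1, 14888.7 and 14483.9 in knockdown, where knockdown B lay only slightly under wild type B. Its log2 fold change was -0.36 ± 0.04 (SE; limma adjusted p 4e-05), which is 1.28-fold lower. It was -0.187 with signals as deposited, where the adjusted p of 0.0703 missed the threshold, and -0.382 with median-centred arrays (adjusted p 0.00319).

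**Figure D3:**
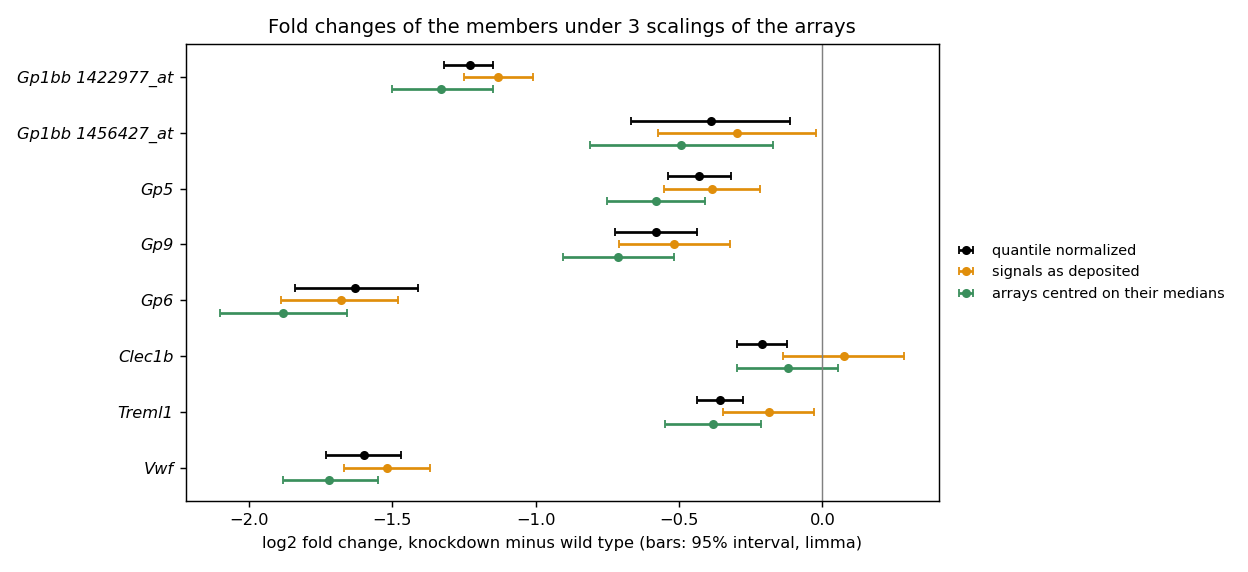
Log2 fold change, knockdown minus wild type, of each member probe set with its 95% interval from limma, under quantile normalization (black), signals as deposited (orange) and arrays centred on their medians (green). Gp6, Vwf and the brighter Gp1bb probe set stay below -1 under all 3 scalings, and only Clec1b crosses 0, at 0.0748 with signals as deposited.

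Several members read close to the top of the arrays, where a scanner or a saturated probe can flatten differences. The highest signal of an array was 21182 to 23171 in wild type and 23420 to 32655 in knockdown. In wild type, Clec1b stood at 79.8% to 83.6% of its array's highest signal, the brighter Gp1bb probe set at 72.2% to 76.3%, Treml1 at 69.5% to 74.5%, Vwf at 67.5% to 71.6%, Gp9 at 62.3% to 63.6% and Gp5 at 59.5% to 62.5%. Gp6, at 23.4% to 25.2%, and the dimmer Gp1bb probe set, at 2.02% to 2.38%, were far from it. Vwf and the brighter Gp1bb probe set lay in the same range of the array as Treml1 in wild type, and fell 3.04-fold and 2.35-fold. The deposited values carry no saturation mark, and whether a ceiling compressed the bright members, Vwf and Gp1bb included, was not tested.

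The ranks of the bright members on each array moved in 1 direction even where the signals did not. Clec1b ranked 36 to 43 from the top in wild type and 97 to 134 in knockdown, although its deposited mean was higher in knockdown, 19223 ± 2741 against 18132 ± 711 (SD, n = 3). Treml1 ranked 98 to 117 in wild type and 241 to 243 in knockdown. Over the 100 brightest probe sets of the series, the median deposited log2 difference between knockdown and wild type was 0.317, and after quantile normalization it was 0.0194. The fitted fall of Clec1b is thus a fall relative to other bright probe sets, not a lower deposited signal.

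**Figure D4:**
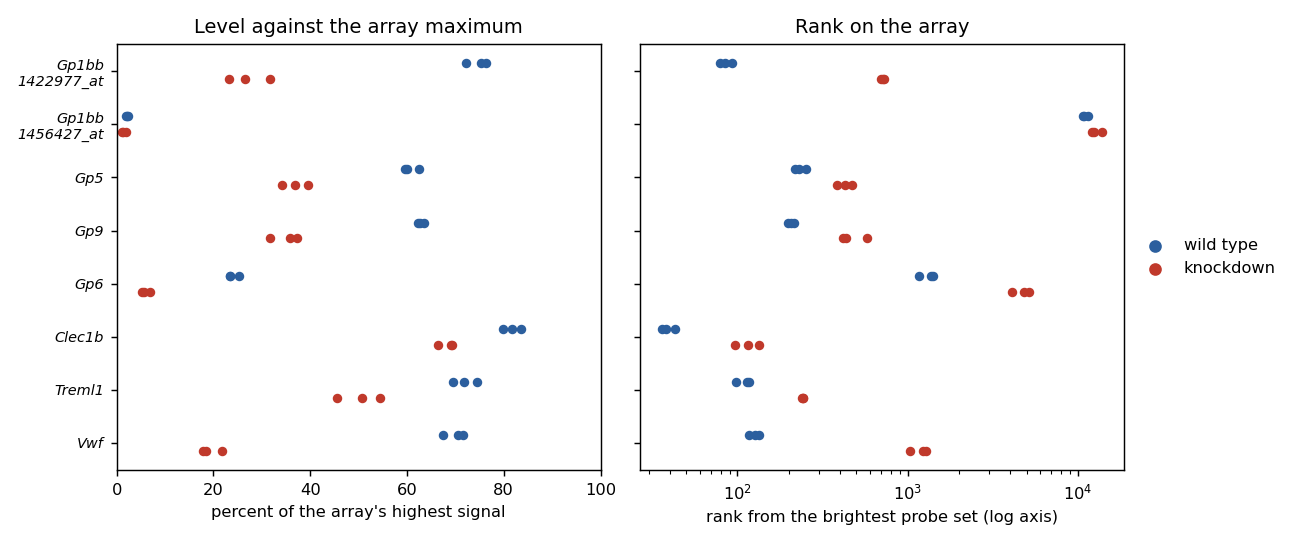
Left, each member's signal as a percent of the highest signal on the same array. Right, its rank from the brightest probe set (log axis). Wild type is in blue and knockdown in red, with 3 arrays each. In wild type, 6 of the 8 probe sets lie above 59% of the maximum, and Clec1b ranks between 36 and 43.

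For each member, the genes whose 6-array pattern lay closest were named by the root mean square distance between centred log2 profiles, over 13223 other genes. The closest to Vwf were the Ikaros family gene Ikzf2, at a distance of 0.0177, and Mfsd6, at 0.028. Those closest to Gp1bb were Gskip (0.0242) and the formin Daam1 (0.0246), those to Gp9 Uba7 (0.0237) and the purine enzyme gene Pnp (0.0306), and those to Gp5 the autophagy protease gene Atg4d (0.0201) and Gpr137 (0.0216). For Gp6 they were the nucleotide hydrolase gene Samhd1 (0.0834) and Fchsd1 (0.0935), for Treml1 Rabgap1l (0.0158) and Fbxo9 (0.0205), and for Clec1b Pitpna (0.0127) and Bcl7b (0.02). With 2 groups of 3 arrays, such a likeness mostly says that the genes changed by a similar amount.

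Genes that work with these receptors were read from 6 lists. Of 56 tested genes, 30 were lower in knockdown, 5 were higher and 21 did not pass, against 17.1% lower and 18.3% higher over all 14228 genes tested. The median log2 fold change was -0.243 for the 56 and 0.0326 over all genes.

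Among the partners and signalling proteins of GPVI and CLEC-2, 7 of 13 tested genes fell, 2 rose and 4 did not pass (median -0.224). The largest falls were those of the Tec family kinase Tec, at -1.51 ± 0.07 (SE), from 5103 ± 289 to 1682 ± 105 (SD, n = 3), the kinase Src at -0.88 ± 0.12 and the exchange factor Vav1 at -0.60 ± 0.07, where 1 of its 2 tested probe sets was called lower. The adaptor Lat rose by 0.47 and the phospholipase Plcg2 by 0.43 on the log2 scale. After median centring Lat was still called higher, at 0.308 (limma adjusted p 0.011), but Plcg2 was not, at 0.196 (adjusted p 0.125). Both act downstream of the same receptors, and both were picked out for mention once their values were known. The brightest probe set of the kinase Syk did not pass, at -0.19 (limma adjusted p 0.0588), but it was called lower with signals as deposited (-0.28, adjusted p 0.014) and after median centring (-0.475, adjusted p 0.00214). Of the 4 tested probe sets of Syk, 2 were called lower and none higher.

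Receptors and phosphatases that restrain or tune this signalling fell more often than they rose. Of 7 tested, 4 fell, 1 rose and 2 did not pass (median -0.215). The adhesion receptors Ceacam1 and Pecam1, which carry inhibitory tyrosine motifs, changed by -1.92 ± 0.20 (SE) and -1.79 ± 0.07. Ptprj, the phosphatase CD148 that keeps Src kinases active in platelets, changed by -1.53 ± 0.07. The phosphatase Ptpn6, picked out once its value was known, rose by 0.50 on the log2 scale, but median centring took it to 0.273 (limma adjusted p 0.119), and the call was lost. No gene of this list was then called higher. Of the 2 tested probe sets of Ptpn6, 1 was called higher and none lower.

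The tail of GPIb alpha is tied to the actin skeleton by filamin A. Flna read 10276.2, 9971.7 and 10397.8 in wild type and 3195.8, 3306.3 and 3153.9 in knockdown, a log2 fold change of -1.62 ± 0.05 (SE; limma adjusted p 1.18e-08). Of the 5 tested genes of tail anchors, Flna and the actinin Actn4, at -0.34, fell, Ywhae rose and 2 did not pass (median -0.123). The rise of the 14-3-3 gene Ywhae was 0.14 and was lost with signals as deposited (0.12, adjusted p 0.153), and its sign turned with arrays centred on their medians (-0.0753). Of the 4 tested probe sets of Ywhae, 1 was called higher and none lower. The 14-3-3 protein known to bind the GPIb alpha tail, from Ywhaz, had a log2 fold change of -0.12 by its brightest probe set and did not pass (limma adjusted p 0.0987). That probe set was called lower after median centring (-0.286, adjusted p 0.0218), and of the 7 tested probe sets of Ywhaz, 3 were called lower and none higher.

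Among 7 tested genes of receptor shedding and of von Willebrand factor cleavage, 4 fell, none rose and 3 did not pass (median -0.304). Timp3, an inhibitor of metalloproteinases, changed by -1.03 ± 0.08 (SE), Rhbdf2, a partner of ADAM17, by -0.74 ± 0.10, and Adam17, the main sheddase of GPIb alpha, by -0.52 ± 0.11, although 1 of its 3 tested probe sets was called lower and the others did not pass. Adam10, which cleaves GPVI, was lower at -0.27 by its brightest probe set, but of its 3 tested probe sets 2 were called lower and 1 higher. The von Willebrand factor protease gene Adamts13 had no probe set of its own.

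Ligands and other adhesion receptors were mostly lower: of 16 tested, 12 fell, none rose and 4 did not pass (median -0.458). With signals as deposited 11 were called lower, as after median centring. Cd9 lost its call in both, at 0.084 (limma adjusted p 0.425) and -0.111 (adjusted p 0.33). The largest changes were those of the thrombospondin receptor Cd36, at -1.83 ± 0.08 (SE), Cd226 at -1.48 ± 0.14 and the junction protein Esam at -1.13 ± 0.09. Cd226 was dim in knockdown, at 194.6, 170.7 and 153.5. Its lowest ratio to the highest bacterial control of an array was 1.29, so the size of its fall is uncertain. Of the 3 tested probe sets of Cd36, 2 were called lower and none higher. Itgb3, the beta subunit of the fibrinogen receptor, which also binds von Willebrand factor, changed by -0.44. Its partner Itga2b did not pass, at -0.03 with a 95% interval of -0.166 to 0.115. With signals as deposited Itga2b was at 0.276 (limma adjusted p 0.149). Its means, 18477 in wild type and 22762.5 in knockdown, were above those of Clec1b, and whether a ceiling compressed it was not tested. Pdpn, which encodes the CLEC-2 ligand podoplanin, was dim, with means of 209 in wild type and 182 in knockdown, and did not pass (limma adjusted p 0.194). The collagen receptor subunit gene Itga2, counted among the 12, read 200.4, 178.9 and 218.0 in wild type and 114.9, 54.7 and 127.1 in knockdown. Knockdown B lay below that array's highest bacterial control, 132, while the other 5 arrays were above theirs, so the size of its fall is not given.

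Markers of neutrophils, macrophages and mast cells were mostly lower in knockdown too. The calls of other blood cell lists were mixed. Of 5 tested red cell markers 2 were lower and 1 higher, and the 1 dendritic cell marker tested did not pass. The summed red cell signal was still lower, at 14522.5 to 14744.3 in wild type and 2913.2 to 3098.5 in knockdown. Its lower markers were Hbb-y, at -3.07 on the log2 scale, and Epor, at -2.34, while Slc4a1 rose by 0.35. Of 7 neutrophil markers 6 were lower and none higher (median log2 fold change -1.96), with a summed signal of 10045 to 10374 in wild type and 2598 to 2634 in knockdown. All 6 macrophage markers were lower (median -1.41), with sums of 15360 to 16153 in wild type and 5864 to 6162 in knockdown. Of 5 mast cell markers 4 were lower and none higher, with sums of 3355 to 4045 in wild type and 958 to 1145 in knockdown. Mcpt1 and Mcpt4 lay below the highest bacterial control on every knockdown array, and Mcpt2 on knockdown B and C, so the median fall is not given. No neutrophil, macrophage or mast cell marker lay within background on all 6 arrays. Cd36, Pecam1 and Ceacam1 are also expressed by myeloid cells. The part of such cells in the adhesion, inhibitory and signalling lists was not tested.

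Genes for the formation of alpha granules, the store of von Willebrand factor and TLT-1, did not move together. Of 8 tested, 1 fell, 1 rose and 6 did not pass (median 0.0502). Vps33b, of the tethering complex that sorts alpha granule cargo, rose from 1976 ± 79.9 to 4655 ± 494 (SD, n = 3), which is 1.28 ± 0.08 on the log2 scale (SE; limma adjusted p 1.73e-06), while its binding partner Vipas39 did not pass, at -0.05. Unc13d, a priming factor of granule release, changed by -0.36 ± 0.06 (SE). The large scaffold gene Nbeal2, lost in grey platelet syndrome, had means of 3222 in wild type and 3191 in knockdown and did not pass, at 0.05 with a 95% interval of -0.173 to 0.27.

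**Figure D5:**
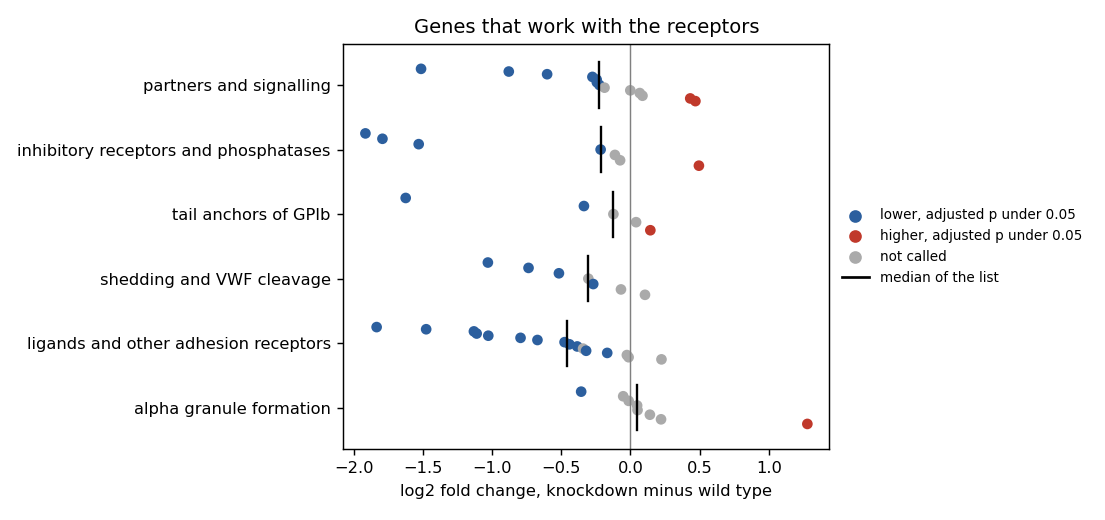
Log2 fold change, knockdown minus wild type, of the 56 tested genes in 6 lists, 1 point a gene, blue where lower and red where higher at a limma adjusted p under 0.05, grey where not called, with a black line at each list's median. The ligands and other adhesion receptors have 12 blue points and no red one, and Vps33b is the red point at 1.28.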

How the data were processed

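The authors' deposited table gives intensity signals on a linear scale for 45101 probe sets of 6 arrays. As the values show, the authors had scaled each array to a mean of 500 with 2% of probe sets trimmed at each end. The signal software is not given in the sources used here, nor is a genome build. The fit used log2(signal + 32). Array medians on that scale spanned 0.346, above a limit of 0.2, so arrays were quantile normalized, which removes shifts common to all genes. The 64 control probe sets and those under the 30th percentile of the mean were left out, leaving 31526. limma 3.58.1 in R 4.3.3 (lmFit, and eBayes with trend) compared the groups with no block, with two-sided tests and Benjamini-Hochberg adjustment over all probe sets tested. The fit was tested on simulated data. Pairs of subunits were compared with an exact permutation test in SciPy 1.17.1. Background is the highest of 27 bacterial controls on an array.

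In the platform annotation 34945 probe sets have 1 symbol, 932 have several and 9160 have none. Symbols were updated with a RefSeq table of GRCm38.p6. A gene in a list stands by its brightest probe set, and of 61 genes listed 56 had one. In the lists, up to 3 called genes with the largest changes were named, and for each member its 2 closest genes. Other list genes were named after their values were seen. The members and lists were chosen with earlier results of these data known.

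Alternatives were offsets of 1 and 100, signals as deposited, median centring, no filter, a filter at the 50th percentile, the letter as a block, each array left out and gene means over probe sets. The labels do not say whether letters pair the samples. Deviations of arrays sharing a letter correlated between -0.0423 and -0.00958. No shared effect of a letter was seen in these values, but so few arrays could miss one. They do not say how the samples were handled.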

Additional observations from a re-analysis of the deposited data

How the results depend on the processing

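Signals as deposited gave 5 member probe sets called lower in place of 8: Clec1b reversed to 0.0748, and the adjusted p of Treml1 and of the dimmer Gp1bb probe set missed the threshold. With arrays centred on their medians 7 were called, without Clec1b, and the list genes called higher were 2 in place of 5. With no filter 7 were called, without the dimmer Gp1bb probe set, and the cause was not tested. Offsets of 1 and 100, the filter at the 50th percentile and the replicate block each left all 8 called lower. With the replicate block, 29 list genes were lower and 4 higher, against 30 and 5. With single arrays left out, member probe sets called lower were 7 to 8 and higher 0 to 0, list genes called lower 27 to 30 and higher 4 to 8, the 8 being without knockdown A. Among all calls in the series, 52.9% were rises, 60.0% with signals as deposited and 32.9% with median centring. No subunit pair turned over under the offsets and scalings tried. With 3 arrays a group, no permutation p under 0.10 can be reached, and the array number limits precision.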
